A study of Mus musculus with 2 samples.

Results

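The Nr4a genes Nr4a1, Nr4a2 and Nr4a3 encode the 3 members of a family of orphan nuclear receptors, and they were taken by symbol from the 27998 genes measured in nuclei of mouse calf muscle. They were chosen on these same data, by their levels and shares of positive nuclei across main myosins, outside the fibers and between the libraries. Every level of a member given here is therefore a description, with no test. The products, Nur77, Nurr1 and Nor1, are transcription factors whose activity is set largely by how much of them is made. They belong to the early-response genes, which are transcribed soon after a stimulus without new protein synthesis. In skeletal muscle, exercise and β-adrenergic signaling through cyclic AMP (cAMP) induce them, and Nr4a1 and Nr4a3 have been linked to glucose and fatty acid metabolism and to oxidative fibers.

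Single-nucleus RNA sequencing was performed on the gastrocnemius-plantaris (GP) muscle of B6C3F1 mice. The Ctrl library came from Net39 fl/fl mice without Cre, and the cKO library from HSACreERT2;Net39 fl/fl mice. Net39 is a protein of the nuclear envelope of muscle, and Plpp7 is its gene. All mice carried the floxed allele, were 5 months of age and were taken 3 months after tamoxifen. The comparison asks how loss of Net39 from adult fibers alters gene expression in their nuclei, since HSA-CreERT2 is active in muscle fibers and, per the study's methods, not in satellite cells. Nuclei of 3 muscles were pooled in each library, and each group had 1 library. With no second library there is no measure of how animals vary, so no test was possible. The 95% intervals given in brackets cover counting error only. They are exact Poisson for levels in CPM (UMIs of a gene per 1000000 UMIs of the same nuclei, a UMI being 1 captured RNA molecule), Clopper-Pearson for shares and exact conditional for ratios.

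All 3 genes are protein-coding genes with 0 overlapping genes in GENCODE M21 for GRCm38. Nr4a1 (ENSMUSG00000023034) lies on the plus strand of chromosome 15 from 101254269 to 101274795, Nr4a2 (ENSMUSG00000026826) on the minus strand of chromosome 2 from 57106830 to 57124003, and Nr4a3 (ENSMUSG00000028341) on the plus strand of chromosome 4 from 48045153 to 48086447. The DNA just before their starts is shown because cAMP acts on such genes through the cAMP response element (CRE), and the core of that element, TGACG, occurs on either strand 4 times in each of the 3 promoter windows of 300 bases. Among 32851 RefSeq windows of the same length, 20.8% held at least 1 core and 0.231% held at least 4. The bases G and C made up 72.3% of the Nr4a1 window, 81.7% of the Nr4a2 window and 64.7% of the Nr4a3 window. The core itself holds a CG, and the comparison with all windows was not matched for base content, so these shares are no measure of how unusual the cores are. The stretches below come from RefSeq on GRCm38.p6, at chr15:101266603-101266820 (plus strand) for Nr4a1, chr2:57124100-57124213 (minus strand) for Nr4a2 and chr4:48045064-48045172 (plus strand) for Nr4a3. They run 5′ to 3′ from the first core to the last, with 10 bases on each side, and capitals mark TGACG or its complement CGTCA.
Nr4a1: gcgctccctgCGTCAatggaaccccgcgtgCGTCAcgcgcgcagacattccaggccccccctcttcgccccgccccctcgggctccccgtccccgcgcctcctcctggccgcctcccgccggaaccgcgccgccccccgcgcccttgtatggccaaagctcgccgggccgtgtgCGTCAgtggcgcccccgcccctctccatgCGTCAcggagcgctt
Nr4a2: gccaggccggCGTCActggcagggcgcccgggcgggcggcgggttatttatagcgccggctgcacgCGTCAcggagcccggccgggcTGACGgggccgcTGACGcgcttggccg
Nr4a3: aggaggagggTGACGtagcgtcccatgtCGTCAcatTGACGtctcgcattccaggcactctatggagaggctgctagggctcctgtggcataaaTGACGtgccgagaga
The cores lay 40 to 233 bases before the start in Nr4a1, 111 to 200 in Nr4a2 and 147 to 231 in Nr4a3. The full CRE, TGACGTCA, occurred 0 times in the 3 windows and in 1.79% of all windows. One MEF2 motif, the site of the myocyte enhancer factors, occurred in the Nr4a2 window and overlapped none of its TGACG cores, and 3.19% of all windows held it. The CArG motif, held by 1.63% of windows, and AAAGGTCA, the element the receptors themselves bind, held by 1.51%, occurred 0 times in the 3 windows. Of the printed bases, 0 in Nr4a1, 0 in Nr4a2 and 20 in Nr4a3 lie in a GENCODE exon. The Nr4a1 stretch lies inside the annotated gene and is intronic to transcripts that start farther upstream. A match of letters is a description of the sequence and does not show that a factor was bound.

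After the removal of low-quality nuclei and of the highest doublet scores, 3526 Ctrl and 3595 cKO nuclei remained, with medians of 2039.5 and 1612 unique molecular identifiers (UMIs). The nuclear RNA Malat1 held 25.5% of Ctrl and 30.7% of cKO UMIs, and mitochondrial genes held 0.499% and 0.565%. The libraries shared 5 barcodes. Myonuclei, the nuclei of muscle fibers, numbered 2980 in Ctrl and 3297 in cKO, and Myh4, Myh7, Myh1 and Myh2 each stood among the 10 leading genes of 1 of their clusters. In myonuclei Plpp7 had 51.9 CPM in Ctrl and 41.2 in cKO, and in Myh4 nuclei 54.9 and 60.7. The loxP sites flank its first exon per the study's methods and the assay tags 3′ ends, so this level was not used as a check of the deletion. Nuclei outside the fibers formed 4 clusters: fibro-adipogenic progenitor (FAP)-like, vascular, immune-like and satellite cell-like nuclei.

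In myonuclei each of the 3 receptors had a higher level in the cKO library. Nr4a1, the best studied of them in muscle, was counted with 231 UMIs in Ctrl and 457 in cKO, which made 29.5 CPM (25.8-33.5) and 67.5 CPM (61.4-74.0). Nr4a2, known best from dopamine neurons, was nearly absent from Ctrl myonuclei, with 9 UMIs and 1.15 CPM (0.525-2.18), against 172 UMIs and 25.4 CPM (21.7-29.5) in cKO. Nr4a3 had 88 UMIs and 11.2 CPM (8.999-13.8) in Ctrl and 386 UMIs and 57.0 CPM (51.4-63.0) in cKO. The intervals of the libraries did not overlap for any of the 3 genes. The levels in cKO were 2.29-fold (1.95-2.70) those in Ctrl for Nr4a1, 22.1-fold (11.4-49.2) for Nr4a2 and 5.08-fold (4.02-6.48) for Nr4a3.

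All 3 members were thus at least 2-fold higher, as were 4.05% of the 11466 genes with at least 20 UMIs in myonuclei, and the selection on these values leaves nothing to be read from that count. The median gene had a log2 ratio of -0.08. In the order of log2 ratios from the highest, Nr4a2 stood at position 18, Nr4a3 at 90 and Nr4a1 at 335. Nr4a1 with its moderate difference and high counts lay just above the 2-fold line, with an interval that reaches below it, and Nr4a2 lay far above it with a wide interval that reflects its 9 Ctrl UMIs.

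**Figure D1:**
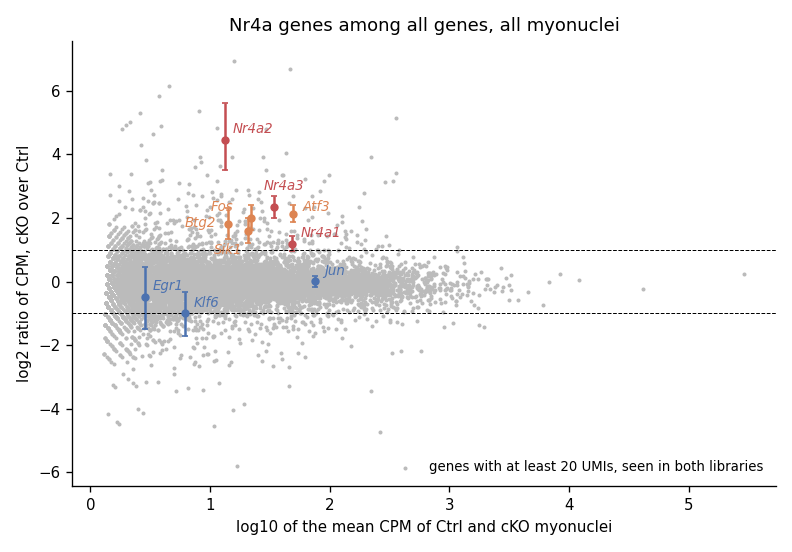
Log2 ratio of CPM, cKO over Ctrl, against the log10 mean CPM of both libraries, for genes with at least 20 UMIs in myonuclei that were seen in both libraries. Dashed lines mark 2-fold and bars 95% counting intervals; the 3 Nr4a genes (red) lie above the upper line with Fos, Atf3, Sik1 and Btg2 (orange), while Jun, Egr1 and Klf6 (blue) do not.

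The share of myonuclei with at least 1 UMI showed the same direction. Nr4a1 was seen in 206 of 2980 Ctrl myonuclei (6.91%, 6.03-7.88) and 369 of 3297 cKO myonuclei (11.2%, 10.1-12.3). Nr4a2 was seen in 8 Ctrl (0.268%, 0.116-0.528) and 138 cKO myonuclei (4.19%, 3.53-4.93), and Nr4a3 in 52 (1.74%, 1.31-2.28) and 243 (7.37%, 6.50-8.32). The median myonucleus held 2140 UMIs in Ctrl and 1647 in cKO, so the library with fewer UMIs per nucleus had the larger shares. With each nucleus thinned to 500 UMIs, the shares were 1.21% in Ctrl and 4.03% in cKO for Nr4a1, 0.0671% and 1.40% for Nr4a2, and 0.403% and 2.64% for Nr4a3. The thinned counts gave log2 ratios of 1.82 for Nr4a1 and 2.94 for Nr4a3, in place of 1.20 and 2.34. One thinning is a single draw, and the share expected over all thinnings was 1.45% and 3.45% for Nr4a1, 0.0434% and 1.19% for Nr4a2, and 0.513% and 2.53% for Nr4a3.

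**Figure D2:**
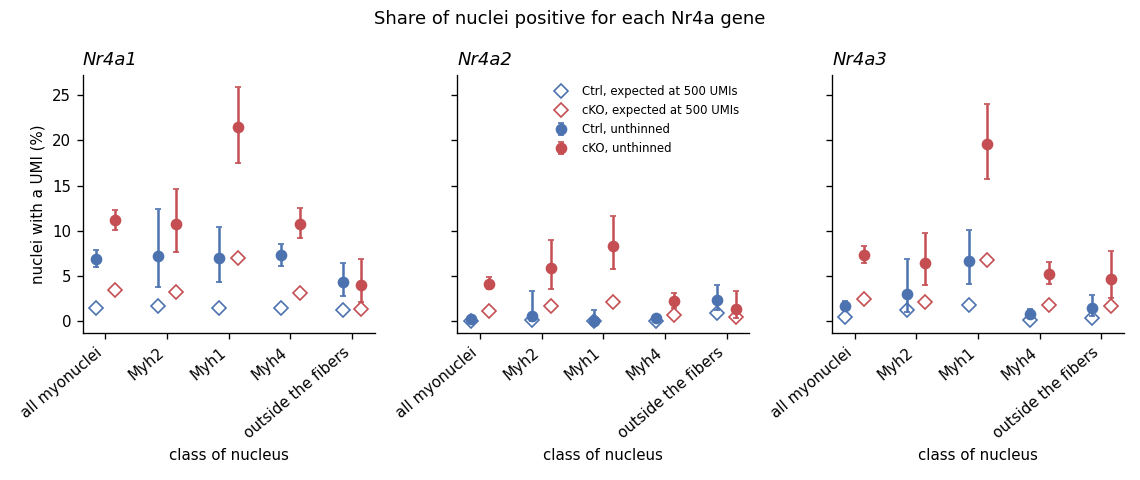
Share of nuclei with at least 1 UMI of each gene by class and library. Filled circles are unthinned shares with 95% Clopper-Pearson intervals and open diamonds the shares expected at 500 UMIs per nucleus; among the classes drawn, Myh1 nuclei of cKO had the highest shares for all 3 genes, with 21.5%, 8.38% and 19.6% unthinned.

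Most positive nuclei held a single UMI. Of the 369 cKO myonuclei positive for Nr4a1, 304 held 1 UMI, 47 held 2 and 18 held 3 or more, while in Ctrl 182 of 206 held 1 and 1 held 3 or more. Of the 243 cKO myonuclei positive for Nr4a3, 158 held 1 UMI and 33 held 3 or more, with up to 11 in 1 nucleus. In Ctrl the Nr4a3 counts were concentrated, since 9 of the 52 positive nuclei held 3 or more UMIs and 5 nuclei held 25 of the 88 UMIs. For Nr4a2 in cKO, 117 of 138 positive nuclei held 1 UMI and the 5 highest held 20 of 172. The difference in Nr4a2 was thus spread over many nuclei and was not carried by a few.

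The levels were also read in tertiles of depth and quality, cut within each library, so that their ranges differ between the libraries. The lowest tertile of UMIs per nucleus ran from 505 to 1754 in Ctrl and from 502 to 1307 in cKO. Whether depth or quality lies behind the differences was not tested. In the lowest tertile of UMIs per nucleus Nr4a1 had 26.2 CPM in Ctrl and 79.7 in cKO, and in the highest tertile 27.8 and 56.6. Nr4a2 in cKO had 27.2, 23.5 and 25.8 CPM from the lowest tertile to the highest, against 0.690, 0.466 and 1.65 in Ctrl. For Nr4a3 the corresponding levels were 64.0, 62.8 and 52.1 CPM in cKO and 14.5, 12.1 and 9.66 in Ctrl. Split by the share of Malat1, which was higher in the cKO library, Nr4a1 in cKO had 85.3 CPM in the lowest tertile and 45.0 in the highest, both above the 26.5 to 32.0 CPM of the Ctrl tertiles. In the highest tertile the intervals overlap, with 45.0 CPM (37.1-54.1) in cKO and 30.0 CPM (23.6-37.7) in Ctrl. Split by mitochondrial share, Nr4a3 had 47.1 to 72.2 CPM in the cKO tertiles and 9.20 to 13.8 CPM in those of Ctrl.

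**Figure D3:**
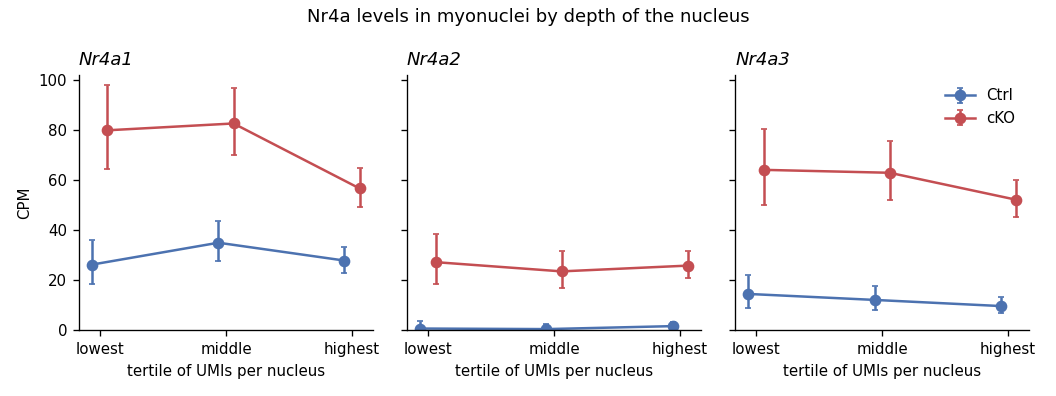
CPM of each Nr4a gene in myonuclei, split into tertiles of UMIs per nucleus within each library, with 95% Poisson intervals. In each tertile the cKO level (red) lies above the Ctrl level (blue) for all 3 genes, from 79.7 against 26.2 CPM for Nr4a1 in the lowest tertile to 52.1 against 9.66 CPM for Nr4a3 in the highest.

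The main myosin of a myonucleus was the adult heavy chain gene with 60% or more of its myosin UMIs, where it had 3 or more in all, out of Myh7 (slow type I fibers), Myh2 (type IIa), Myh1 (type IIx) and Myh4 (fast type IIb). Myh4 nuclei numbered 1908 in Ctrl and 1430 in cKO, Myh1 nuclei 302 and 382, Myh2 nuclei 165 and 325, and Myh7 nuclei 19 and 276. Nuclei with 3 UMIs but no main myosin (mixed) numbered 127 and 208, and those with fewer UMIs (undetermined) 459 and 676. The classes therefore differ in size between the libraries, and the 19 Myh7 nuclei of Ctrl held only 40470 UMIs.

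The Myh1 nuclei of cKO had the highest Nr4a1 and Nr4a3 levels of the 4 myosin classes. Their Nr4a2 level did not differ beyond counting error from those of Myh7 and Myh2 nuclei. Nr4a1 had 28.8 CPM (18.2-43.2) in Ctrl Myh1 nuclei and 118 CPM (96.3-143) in cKO, a 4.09-fold (2.59-6.74) difference. Nr4a3 had 32.5 CPM (21.2-47.6) and 140.2 CPM (117-167), a 4.31-fold (2.81-6.85) difference. Nr4a2 was not detected in the 302 Ctrl Myh1 nuclei, where 0 nuclei with a UMI allow a share of nuclei with a UMI of up to 0.993% by a floor of 3 nuclei and 1.21% by the Clopper-Pearson limit, and had 40 UMIs and 44.9 CPM (32.0-61.1) in cKO. Against the floor of 3 UMIs in Ctrl, that is at least 12.0-fold higher. All 3 members were past 2-fold in Myh1 nuclei, where 3.96% of 5991 genes were.

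In Myh4 nuclei, the largest class, the 3 genes were again higher in cKO. Nr4a1 had 28.7 CPM (24.3-33.6) in Ctrl and 65.8 (56.9-75.7) in cKO. Nr4a2 had 8 UMIs and 1.49 CPM (0.643-2.93) in Ctrl and 41 UMIs and 13.8 CPM (9.92-18.8) in cKO. Nr4a3 had 5.40 CPM (3.61-7.75) and 42.8 CPM (35.7-51.0). The ratios were 2.30-fold (1.85-2.85), 9.29-fold (4.30-22.9) and 7.94-fold (5.27-12.3) in the order of their numbers, so all 3 were past 2-fold in a class where 2.87% of 10003 genes were. The 29 Ctrl UMIs of Nr4a3 came from 16 nuclei, and 5 of these held 18. The intervals of its ratios in Myh4 and Myh1 nuclei overlap.

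In Myh2 nuclei the levels of Nr4a1 and Nr4a3 were closer between the libraries. Nr4a1 had 39.2 CPM (22.4-63.7) in Ctrl and 62.5 (45.3-84.2) in cKO, a ratio of 1.59 (0.880-3.03). With the myosin read after thinning to 500 UMIs, its log2 ratio was 3.03 (0.33 to 8.43) in place of 0.67. With a main myosin set at 80% of the myosin UMIs it was 0.005 (-1.11 to 1.18). Nr4a3 had 31.9 CPM (17.0-54.5) and 40.7 CPM (27.1-58.9), a ratio of 1.28 (0.640-2.69), but its 13 Ctrl UMIs came from 5 nuclei. Its log2 ratio of 0.35 became -0.12 with a main myosin set at 80% and -0.15 with a minimum of 5 myosin UMIs. It became 1.00 with the myosin read after thinning. Counting error leaves room for no difference in either gene here. Nr4a2 had 1 UMI in Ctrl and 25 in cKO, which made 2.45 and 36.4 CPM and a ratio of 14.8 with a counting interval of 2.43 to 609. It was the 1 member of 3 past 2-fold, beside 4.43% of 4872 genes.

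Myh7 nuclei allowed no comparison of the libraries at this depth. In Ctrl, Nr4a1 and Nr4a3 had 1 UMI each and Nr4a2 had 0, with intervals that reached 138, 138 and 91.2 CPM. In the 276 cKO Myh7 nuclei Nr4a1 had 26.2 CPM (15.0-42.6), Nr4a2 39.4 (25.2-58.6) and Nr4a3 21.3 (11.35-36.45). Nr4a2 alone reached 20 UMIs and counts as past 2-fold only because Ctrl had 0, in a class where 18.0% of 3598 genes were past it. Within cKO, the slow nuclei thus had the lowest Nr4a1 and Nr4a3 levels of the 4 classes, while their Nr4a2 level was as high as in Myh2 nuclei within counting error.

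**Figure D4:**
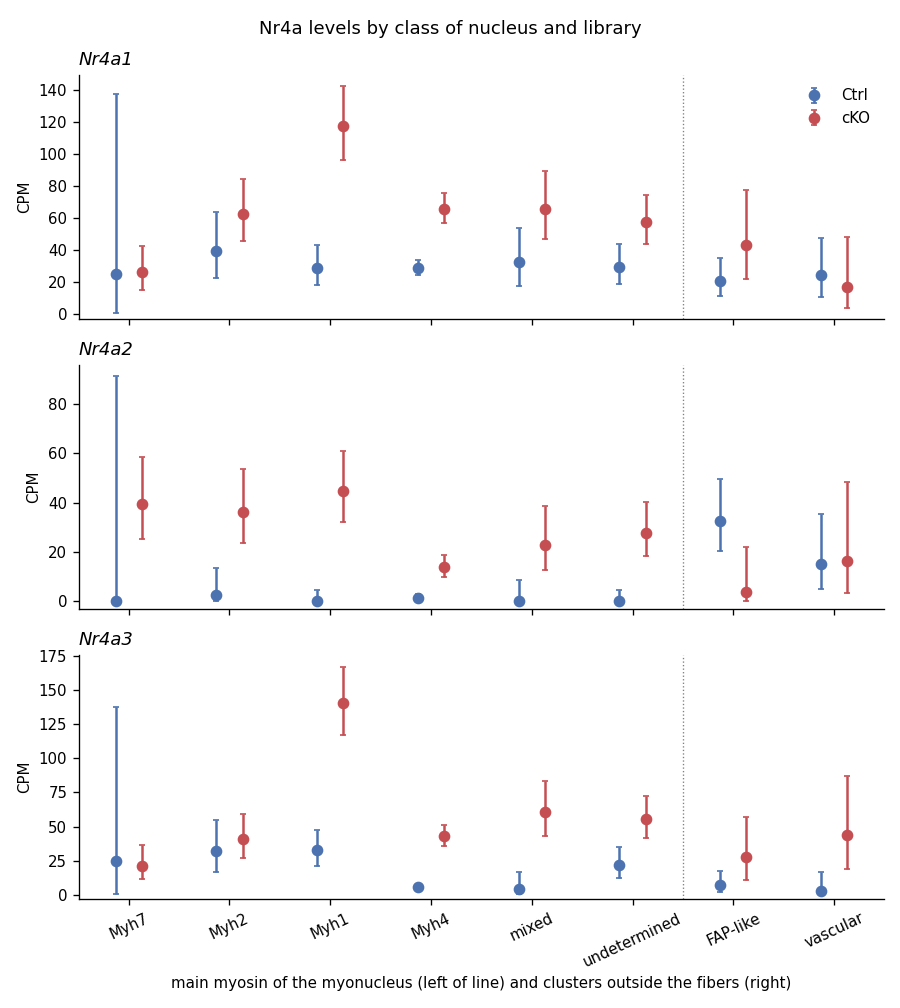
CPM of each Nr4a gene by main myosin of the myonucleus and, right of the dotted line, in 2 groups of nuclei outside the fibers, with 95% Poisson intervals. Nr4a1 and Nr4a3 have their highest cKO levels in Myh1 nuclei, at 118 and 140.2 CPM, while Nr4a2 in Ctrl is highest in FAP-like nuclei, at 32.7 CPM.

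Within cKO the order of levels was Myh1, Myh4, Myh2 and Myh7 for both Nr4a1 and Nr4a3, while Nr4a2 had another order. In Ctrl myonuclei Nr4a2 had 9 UMIs, too few for an order of classes. For Nr4a1 in Ctrl, Myh1 and Myh4 nuclei did not differ beyond counting error, with a ratio of 1.00 (0.618-1.56), whereas in cKO Myh1 nuclei had 1.79-fold (1.40-2.28) the level of Myh4 nuclei and 1.88-fold (1.31-2.75) that of Myh2 nuclei. Myh4 and Myh2 nuclei of cKO had like levels, with a ratio of 1.05 (0.753-1.50), and both were above Myh7 nuclei, by 2.51-fold (1.51-4.47) for Myh4 and 2.38-fold (1.32-4.53) for Myh2. The class pattern of Nr4a1 was therefore present in cKO and not detectable in Ctrl.

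For Nr4a3 the class pattern was present in both libraries. In Ctrl its level in Myh1 nuclei was 6.03-fold (3.41-10.6) that in Myh4 nuclei, and in cKO 3.27-fold (2.54-4.22). Nr4a3 was the 1 member of 3 past 2-fold between these classes in both libraries, as 6.48% of 9326 genes were in Ctrl and 5.00% of 8066 in cKO; Nr4a2 was past it in cKO. With a main myosin set at 80% of the myosin UMIs the log2 ratio in Ctrl was 3.66 in place of 2.59. In Ctrl, Myh2 and Myh1 nuclei had like Nr4a3 levels, with a ratio of Myh1 over Myh2 of 1.02 (0.506-2.16), but in cKO Myh1 nuclei had 3.44-fold (2.27-5.39) the level of Myh2 nuclei. Below them, Myh4 and Myh2 nuclei of cKO did not differ beyond counting error, with a ratio of 1.05 (0.694-1.65), nor did Myh2 and Myh7 nuclei, with 1.91 (0.958-4.02). Nr4a3 was also among the 10 leading genes of the cluster led by Myh1, which held 460 Ctrl and 483 cKO nuclei, and since that cluster was built from the same counts this is a description.

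For Nr4a2 in cKO, the order of levels was Myh1, Myh7, Myh2 and Myh4, and the first 3 of these did not differ beyond counting error. Myh1 nuclei had 3.24-fold (2.05-5.14), Myh7 nuclei 2.85-fold (1.64-4.82) and Myh2 nuclei 2.63-fold (1.53-4.43) the level of Myh4 nuclei. Nr4a2 thus set the Myh4 nuclei apart from the other 3 classes, while Nr4a1 and Nr4a3 set the Myh1 nuclei apart. In cKO the mixed and undetermined nuclei had 65.6 and 57.5 CPM of Nr4a1, 23.0 and 27.8 of Nr4a2, and 60.7 and 55.5 of Nr4a3, and Nr4a2 had 0 UMIs in the 127 mixed and 459 undetermined nuclei of Ctrl.

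Near the thresholds of the myosin rule the members had these values. With exactly 3 myosin UMIs and a main myosin, 283 nuclei of each library had 26.4 CPM of Nr4a1 in Ctrl and 65.3 in cKO, and nuclei with 2 UMIs of 1 myosin, which the rule leaves undetermined, had 37.3 and 49.4. Nr4a2 had 1.88 and 22.6 CPM inside and 0 and 12.4 outside. For Nr4a3 the levels were 11.3 and 67.8 CPM inside and 8.61 and 55.6 outside. Between 60% and under 70% of the myosin UMIs Nr4a3 had 16.8 CPM in Ctrl and 73.3 in cKO, and between 50% and under 60% it had 5.38 and 45.7.

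Slow and IIa nuclei made up more of the cKO library, and the arithmetic difference was therefore divided between class shares and levels inside each class. Of the 38.0 CPM by which Nr4a1 was higher in cKO, 39.0 lay in levels within classes and -1.02 in class shares. For Nr4a2, 21.8 of 24.2 CPM lay within classes, and for Nr4a3 42.4 of 45.8. The Myh4 class carried the most, with 20.8, 6.93 and 21.02 CPM for Nr4a1, Nr4a2 and Nr4a3, and the Myh1 class followed with 10.4, 5.24 and 12.6. Class shares thus held -1.02 to 3.36 CPM of these differences.

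Smaller groups of myonuclei were read in the same way. Of 106 Ctrl and 93 cKO nuclei of the myotendinous junction-like cluster, where fibers meet tendon, 3 and 16 were positive for Nr4a3, which made 11.0 CPM (2.99-28.1) and 100.5 CPM (63.0-152). Nr4a1 there had 38.4 CPM (21.02-64.5) and 59.4 CPM (31.6-102), which overlap. In the neuromuscular junction-like cluster of 32 and 36 nuclei the members had 0 to 7 UMIs each, too few to compare.

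Members were found together in nuclei of both libraries, in Ctrl almost only as Nr4a1 with Nr4a3. Unthinned, 76 cKO myonuclei held both Nr4a1 and Nr4a3, where the product of their shares gives 27.2, and in Ctrl 10 did, where it gives 3.59. The product over all myonuclei mixes classes with different shares, and within cKO Myh1 nuclei 26 held both where it gives 16.1. Of all cKO myonuclei, 38 held Nr4a2 and Nr4a3 where it gives 10.2. Nr4a1 and Nr4a2 were found together in 35, against a product of 15.4. In Ctrl, Nr4a2 was found with Nr4a3 in 1 myonucleus and with Nr4a1 in 0, against products of 0.140 and 0.553. Deep nuclei are positive more often for every gene, so the counts were also taken at 500 UMIs. There, in the same order, the pairs were found in 10, 7 and 3 cKO myonuclei against products of 3.51, 1.21 and 1.86, counts too small to weigh. At least 1 member was seen in 255 of 2980 Ctrl (8.56%, 7.58-9.62) and 619 of 3297 cKO myonuclei (18.8%, 17.45-20.15) unthinned. Among Myh1 nuclei the share was 37 of 302 in Ctrl (12.3%, 8.77-16.5) and 141 of 382 in cKO (36.9%, 32.1-42.0).

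At 500 UMIs, the 247 cKO myonuclei with a member UMI were compared with the 3050 without. Atf3, a stress-induced transcription factor, had 121 CPM (68.0-200.3) with a member UMI and 55.1 (43.9-68.2) without. Sik1 had 89.1 CPM (44.5-159) and 30.2 CPM (22.1-40.2). Of genes picked out after their values were seen, Ppargc1a, the coactivator of mitochondrial genes and a leading gene of the cluster led by Myh1, had 785 CPM (637-958) and 368 CPM (338-400). Myh1 had 1263 CPM (1073-1478) and 654 CPM (614-696). Fos had 24.3 CPM (5.01-71.0) and 31.5 CPM (23.2-41.7), and Jun 64.8 (28.0-128) and 69.5 (56.9-84.1), so Fos and Jun did not differ beyond counting error. Nuclei are not replicates, and the comparison describes this library.

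In the clusters outside the fibers the members differed in direction. These nuclei numbered 546 in Ctrl and 298 in cKO, with medians of 1322 and 1158 UMIs. Nr4a1 was seen in 24 (4.40%, 2.84-6.47) and 12 of them (4.03%, 2.10-6.93), Nr4a2 in 13 (2.38%, 1.27-4.04) and 4 (1.34%, 0.367-3.40), and Nr4a3 in 8 (1.47%, 0.635-2.87) and 14 (4.70%, 2.59-7.76). One member, Nr4a3, was past 2-fold in the higher direction, beside 3.06% of 7906 genes. Its level was 7.12 CPM (3.08-14.0) in Ctrl and 38.2 CPM (22.6-60.4) in cKO, while Nr4a1 had 24.9 (16.6-36.0) and 36.1 (21.01-57.8), and Nr4a2 24.9 (16.6-36.0) and 8.49 (2.31-21.7).

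Fiber RNA was also counted in these nuclei, and 14 abundant fiber genes gave its measure; its source was not tested. Outside the fibers they were found at a median of 51.9% of their myonuclear level in Ctrl (41.1% to 92.8%) and 52.9% in cKO (36.9% to 109%). Nr4a1 stood at 84.7% of its myonuclear level in Ctrl and 53.5% in cKO, and Nr4a3 at 63.5% and 67.0%, all inside the range of the fiber genes. Levels of these genes outside the fibers as a whole cannot be told apart from fiber RNA, and no expression there is read from them. In FAP-like nuclei the fiber genes reached 63.5% in Ctrl and 61.7% in cKO, and Nr4a1 stood just above, at 70.6% and 64.2%, from 14 and 11 UMIs. Nr4a3 there stood at 66.2% in Ctrl, also above, and at 48.4% in cKO, from 5 and 7 UMIs. Nr4a2 in cKO, at 33.4% outside the fibers, was below the range.

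Nr4a2 in Ctrl stood far above these ranges, at 2173% of its myonuclear level. In the 321 FAP-like nuclei, the fibroblast-like cells between fibers, it had 22 UMIs in 8 nuclei and 32.7 CPM (20.5-49.5), and 12 of these UMIs lay in 1 nucleus and 19 in 5. The 174 vascular nuclei, in which endothelial and mural markers were mixed, had 5 UMIs and 15.1 CPM (4.91-35.3). In cKO the 151 FAP-like nuclei had 1 UMI and 3.94 CPM (0.0997-21.9), a log2 ratio of -3.05 (-8.42 to -0.42). In Ctrl myonuclei Nr4a2 had 1.15 CPM. When nuclei outside the fibers were instead taken by at least 3 UMIs of the marker genes of those cells, the log2 ratio of Nr4a2 was 1.75 (1.09 to 2.43) in place of -1.55, so its direction outside the fibers depends on how these nuclei are drawn. Nr4a1 then had a log2 ratio of 1.13 (0.77 to 1.49) in place of 0.53 and Nr4a3 one of 2.78 (2.28 to 3.32) in place of 2.42. The share of all genes past 2-fold was not taken in nuclei drawn that way, so nothing is read from the number of members past it. Nr4a3 in vascular nuclei had 1 UMI in Ctrl and 8 in cKO, and in immune-like and satellite cell-like nuclei, 10 to 30 of each per library, the members had 0 to 4 UMIs each.

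The retinoid X receptors form heterodimers with Nur77 and Nurr1, the products of Nr4a1 and Nr4a2, and their 3 genes were counted as well. In myonuclei Rxra had 36.3 CPM in Ctrl and 24.7 in cKO, Rxrg 40.2 and 33.2, and Rxrb 10.1 and 11.1. Of the 3, 0 were past 2-fold in either direction, and the median log2 ratio was -0.27, beside -0.08 over all genes.

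In the cAMP-CREB arm, which leads from receptors at the cell surface to the transcription of early genes, 1 of 16 counted genes was at least 2-fold higher and 1 at least 2-fold lower, with a median log2 ratio of -0.06. Over all genes 4.05% were at least 2-fold higher and 5.14% at least 2-fold lower. Sik1, a CREB-induced kinase that feeds back on CREB coactivators, had 80 UMIs and 10.2 CPM in Ctrl and 210 UMIs and 31.0 CPM in cKO, 3.04-fold (2.34-3.98). The 3 most counted genes of the arm did not pass 2-fold. Pde4d, a phosphodiesterase that breaks down cAMP, had a log2 ratio of -0.75, Pde4b of -0.09 and Adcy9, an adenylyl cyclase, of -0.24.

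In the calcium-Mef2 arm, which links contraction through calcineurin, NFAT, CaM kinases and histone deacetylases to Mef2, 1 of 18 counted genes was higher and 0 were lower, with a median log2 ratio of 0.09, beside 4.05% and 5.14% of all genes, so 1 of 18 is near the background. Hdac9, a histone deacetylase that represses Mef2 targets, had 75.4 CPM in Ctrl and 174 in cKO, 2.31-fold (2.09-2.55). Mef2c had 1693 and 1784 CPM, a log2 ratio of 0.08, Hdac4 a log2 ratio of -0.31 and Ppp3ca, the catalytic subunit of calcineurin, one of -0.53. Camk2d, picked out after its values were seen, lay just under the 2-fold line, at 1.98-fold (1.87-2.09). Picked out in the same way, Hdac5 was 1.585-fold (1.36-1.85) and Mef2d 1.45-fold (1.34-1.57) higher, while Mef2a and Camk2g had log2 ratios of -0.48 and -0.33.

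Among 17 other early-response genes with enough counts, 4 were at least 2-fold higher and 1 at least 2-fold lower, with a median log2 ratio of 0.36, beside 4.05% and 5.14% of all genes counted and a median of -0.08. Atf3 had 144 UMIs in Ctrl and 543 in cKO, which made 18.4 and 80.2 CPM and 4.37-fold (3.63-5.28). These UMIs lay in 53 Ctrl and 222 cKO myonuclei, a gathering that the interval does not cover. Fos, a subunit of the AP-1 factor, had 68 and 237 UMIs, 8.67 and 35.0 CPM, 4.04-fold (3.07-5.37). Btg2, an antiproliferative early gene, had 6.25 and 22.1 CPM, 3.54-fold (2.55-5.00), and Fosb had 5 and 15 UMIs. The lower gene was Klf6, a zinc-finger factor, with 8.29 and 4.13 CPM. It was close to 2-fold and did not pass it with Malat1 and mitochondrial genes left out of the totals.

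Of the 3 most counted early genes that did not pass 2-fold, 1 was higher beyond counting error. Jun, the partner of Fos in AP-1, had 75.6 CPM in Ctrl and 76.2 in cKO, and its log2 ratio was 0.01 (-0.16 to 0.18). Dusp1, a phosphatase that turns off MAP kinases, had 27.7 and 40.8 CPM, 1.47-fold (1.23-1.77), and the clock gene Per1 26.9 and 21.7. Of genes picked out after their values were seen, Fosl2 was 1.65-fold (1.18-2.30) and Jund 1.86-fold (1.08-3.28) higher in cKO, while Cebpb, with 215 UMIs in Ctrl and 134 in cKO, had a log2 ratio of -0.47 (-0.79 to -0.15). Egr1 and Junb, picked out in the same way, had log2 ratios of -0.49 (-1.49 to 0.46) and 0.07 (-0.91 to 1.03) at 16 to 26 UMIs per library. The Nr4a genes, Fos, Atf3 and Btg2 were thus high in cKO myonuclei while Jun, Junb and Egr1 were not detectably so.

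By main myosin, Fos had its highest cKO level in Myh1 nuclei, as Nr4a1 and Nr4a3 did. It had 10.0 CPM in Ctrl and 70.6 in cKO in Myh1 nuclei, against 8.56 and 29.3 in Myh4 nuclei. Atf3 in cKO was as high in Myh7 nuclei, with 126 CPM (99.6-158), as in Myh2 nuclei, with 121 (96.1-149.6), and in Myh1 nuclei, with 104 (84.2-128), and lowest in Myh4 nuclei, with 37.1 (30.5-44.7), as Nr4a2 was. Sik1 also had its lowest cKO level in Myh4 nuclei, at 15.5 CPM (11.4-20.7), and 62.3 CPM (44.1-85.5) in Myh7 nuclei.

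In the clusters outside the fibers the early genes were lower in cKO more than higher, which was not checked with nuclei drawn by marker UMIs. Of 14 counted, 0 were at least 2-fold higher and 4 at least 2-fold lower in cKO, with a median log2 ratio of -0.35, beside -0.07 over all genes in these nuclei, of which 537 of 7906 were as much lower. Fos had 55.2 CPM in Ctrl and 25.5 in cKO, Klf6 56.1 and 25.5, and Per1 42.7 and 10.6. Egr1 had 73.0 and 40.3 CPM. In Ctrl, Fos and Egr1 stood at 637% and 2203% of their myonuclear levels, where the highest of the fiber genes stood at 92.8%. Fos and Nr4a2 thus had higher levels outside the fibers than in them in Ctrl. In cKO, Fos outside the fibers rested on 12 UMIs and stood at 72.8% of its myonuclear level, inside the range of the fiber genes.

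**Figure D5:**
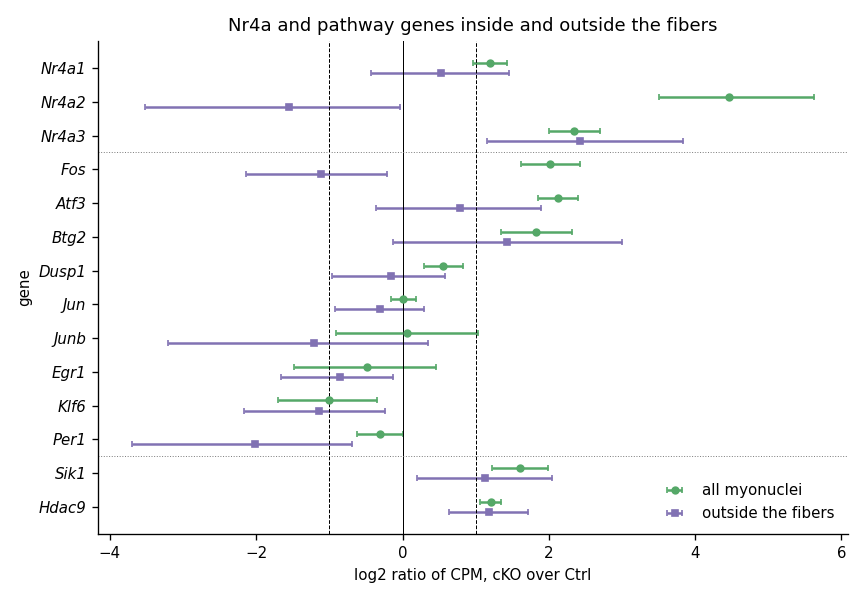
Log2 ratio of CPM, cKO over Ctrl, in all myonuclei (green circles) and in nuclei outside the fibers (purple squares), with 95% counting intervals and dashed lines at 2-fold. Nr4a2 and Fos lie on opposite sides of 0, at 4.47 and -1.55 for Nr4a2 and 2.01 and -1.12 for Fos, while Nr4a3 lies above 2-fold in both. With nuclei outside the fibers drawn by marker UMIs, not plotted, Nr4a2 stood at 1.75.

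Of 20 metabolic genes that have been linked to Nr4a1 or Nr4a3 in muscle, 18 were counted in myonuclei, and 0 of these were at least 2-fold higher and 3 at least 2-fold lower, with a median log2 ratio of -0.16, beside 4.05% and 5.14% of all genes. Pdk4, the kinase that shuts off pyruvate oxidation, had 642 CPM in Ctrl and 140.4 in cKO, and its log2 ratio was -2.19 (-2.29 to -2.09). Ucp3, a mitochondrial carrier, had 241 and 59.5 CPM, and Fbp2, the muscle fructose bisphosphatase, had 11.5 and 2.21 CPM. The most counted genes of the list are those of glycogen breakdown: Phkg1 had a log2 ratio of -0.25, Phka1 of -0.84 and Pygm of -0.60. Some genes, picked out after their values were seen, were higher in cKO by less than 2-fold. Fabp3 was 1.49-fold (1.23-1.82), Ppargc1b 1.35-fold (1.24-1.46) and Cd36 1.24-fold (1.14-1.35) higher, while Pfkm and Lpin1 had log2 ratios of -0.36 and -0.62. Over all myonuclei, the list thus held no counted gene that was at least 2-fold higher in cKO, while each receptor was. Whether the genes of the list were higher in the nuclei that held a member UMI was not tested for the list. Of its genes, Ppargc1a, picked out after its values were seen, was read that way in thinned cKO myonuclei. It had 785 CPM with a member UMI and 368 CPM without.

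Genes whose levels were most like those of each member were sought among 8289 genes over 16 points, the 6 myosin groups, FAP-like and vascular nuclei of each library. The points of a library share its depth, and part of each correlation is the difference between the libraries. For Nr4a1 the 8 closest were Ide, Rrad, Hspa4, Rheb, Tab1, Sh2d4a, Myl1 and Map3k7cl, with Pearson r from 0.70 to 0.77. For Nr4a2 they were Zc2hc1a, Camk2d, Wwp2, Usp31, Iqgap1, Abat, Sesn3 and Sln, from 0.79 to 0.87. For Nr4a3 they were Irs2, Cd28, Irs1, Ube2h, Gm12092, Dnajb4, Hspa9 and Rheb, from 0.73 to 0.79.

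Among these, Zc2hc1a had 20.02 CPM in Ctrl and 145 in cKO myonuclei, and Irs2, an adaptor of the insulin receptor, had 51.3 and 137, with 252 in Myh1 and 72.2 in Myh4 nuclei of cKO. Over the 8 points of cKO alone, r ran from 0.69 to 0.93 for the genes named with Nr4a1, from -0.12 (Abat) to 0.70 (Camk2d) for those with Nr4a2, and from -0.29 (Cd28) to 0.67 (Rheb) for those with Nr4a3. Over the 8 points of Ctrl alone, r ran from 0.30 (Sh2d4a) to 0.87 (Ide) for Nr4a1, from 0.50 (Sln) to 0.91 (Zc2hc1a) for Nr4a2 and from 0.62 (Hspa9) to 0.85 (Ube2h) for Nr4a3. In Ctrl, Nr4a2 had 0 UMIs at 4 of the 8 points and 22 in FAP-like nuclei, so its r there mainly sets the nuclei outside the fibers apart from the rest. Between the members, r was 0.65 for Nr4a1 with Nr4a3, 0.37 for Nr4a1 with Nr4a2 and 0.34 for Nr4a2 with Nr4a3. The r values with Nr4a2 rest partly on Ctrl points at 0 UMIs. Over the 8 points of cKO alone, r was 0.68 for Nr4a1 with Nr4a3, 0.41 for Nr4a2 with Nr4a3 and 0.25 for Nr4a1 with Nr4a2. The cKO counts of myonuclei that held both members of a pair had the same order.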

How the data were processed

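The members and gene lists were chosen with earlier results of these data known. The authors aligned reads with Cell Ranger 3.1.0 to mm10/GRCm38 at default settings and deposited raw UMI counts per gene and barcode; the handling of intronic reads is not given in the sources used here, and the labels and the methods name different kit releases. Nuclei were kept with at least 100 genes, at least 500 UMIs and at most 10% mitochondrial UMIs, which left 3833 of 3863 Ctrl and 3908 of 3994 cKO barcodes. Scrublet (scanpy 1.11.5) marked 0 doublets at its automatic threshold, so the 8% with the highest scores were removed. Clusters came from Seurat 5.3.0 and sctransform 0.4.2 in R 4.3.3 (3000 features, 25 components, resolution 0.3, 11 clusters) and were named from marker lists. Counts were summed per library and class and scaled to CPM in Python 3.11.15 (pandas 2.3.3, numpy 2.4.6, matplotlib 3.10.9), with intervals from scipy 1.17.1. Genes needed 20 UMIs over both libraries to be counted. Intervals were run on simulated Poisson counts only. That cannot show how they hold where the UMIs of a gene gather in few nuclei. The sample titles speak of 1 mouse and the protocol of 3 pooled muscles, so a library counted as 1 sample and no test was run. Named were the members, the listed genes past 2-fold whose interval leaves out 1 (at most 6 a list), the 3 most counted that did not pass, and the 8 genes most like each member with at least 100 UMIs. One listed gene is not reported here.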

Additional observations from a re-analysis of the deposited data

How the results depend on the processing

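Of 109 alternatives over 34 results, 86 left the value in place, 22 moved it and 1 reversed it. In place means inside the counting interval of the main value, or near it for counts of genes. A change of sign counted as a reversal only where that interval left out 0. Nr4a3 in Myh2 nuclei thus counts as in place, though its log2 ratio of 0.35 became -0.12 and -0.15 in 2 settings. The cause of these moves was not tested unless stated. The reversal was Nr4a2 outside the fibers, at 1.75 on the log2 scale with nuclei drawn by marker UMIs. Thinning to 500 UMIs gave log2 ratios of 1.82 for Nr4a1 and 2.94 for Nr4a3 in myonuclei. With the myosin read after thinning, the log2 ratio was 3.03 for Nr4a1 in Myh2 nuclei and 3.91 for Nr4a3 in Myh4 nuclei, and Myh1 over Myh4 in Ctrl was 3.52 for Nr4a3, or 3.66 at 80% of myosin UMIs. The share of positive myonuclei, cKO minus Ctrl, was 4.28 points for Nr4a1, 3.92 for Nr4a2 and 5.63 for Nr4a3 unthinned, 2.50 for Nr4a2 and 3.37 for Nr4a3 at 1000 UMIs, and 2.00 for Nr4a1 as the expected share, an alternative chosen after seeing the data; by construction a share grows with the UMIs kept. With a minimum of 1 UMI, 2520 genes were at least 2-fold higher and 2957 lower, and with 50 UMIs 294 and 296, in place of 464 and 589. In the cAMP-CREB arm 2 genes were higher at a minimum of 1 UMI and 0 lower at 50; in the calcium-Mef2 arm 1 was lower at 1 UMI and 2 were higher with Malat1 and mitochondrial genes left out of the totals; of the other early genes 2 were lower at 1 UMI and 0 without Malat1 and mitochondrial genes. No paired analysis was possible because each group has 1 library. Counts of under 30 UMIs, as in Myh7 nuclei of Ctrl and in most groups outside the fibers, limit what can be told.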
